A study of Mus musculus with 32 samples.

Results

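Diphtheria toxin (DT) given to mice that carry no Cre, and so should not respond to it, was set against no toxin in mice of the same genotype. The comparison used 12 of the 32 libraries of the series: 8 from toxin-treated controls, 4 of them after 1 day and 4 after 2 days of DT, and 4 from controls without DT. The 12 were chosen by their titles alone, and all carry the same run and lane text in their labels. Each library is total RNA of whole femoral marrow from a C57BL/6 mouse 2 months old, with 4 mice in each group. The controls are littermates of the DTRADQ mice and are labelled "DTR flox, No Cre": they carry the inducible toxin receptor allele without a recombinase to switch it on. DTRADQ mice carry the same allele with adiponectin-Cre, which is active in marrow adipocytes and in the stromal cells that give rise to them. Treated mice of both genotypes received 100 ng of toxin per mouse into the abdomen each day. The labels name no injection for the untreated mice, so toxin, injection and handling cannot be told apart.

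DT enters cells by binding heparin-binding EGF-like growth factor on their surface. The mouse form of that protein binds it poorly, which is why mouse cells need a transgenic receptor to become sensitive. Inside the cell the toxin modifies diphthamide, an altered histidine in elongation factor 2, and protein synthesis stops. Marrow is a mixture of red cell precursors, neutrophils and their precursors, monocytes, lymphocytes, megakaryocytes and a small stromal fraction, so that in whole-marrow RNA fewer cells of a type and less RNA per cell cannot be told apart. Cre-negative littermates given the toxin are the usual reference for such an ablation, and what the injection alone does to them is seen only against untreated mice.

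The untreated libraries differed among themselves more than the treated ones did, and they differed in the length of the genes that took their reads. Genes with models shorter than 1000 bases took 17.14% to 20.5% of the counts in the 8 treated libraries, with a mean of 19.19% ± 1.13 (SD, n = 8). In the untreated controls they took 21.84%, 30.05%, 41.28% and 51.69% in replicates 1 to 4. All 8 treated libraries lay below all 4 untreated ones, with an exact two-sided permutation p of 0.00202, the smallest that 8 against 4 libraries can give. Against replicates 1 and 2 alone it was 0.0222, also the smallest possible. The share of the 10 genes with most counts was 19.4% to 22.05% in treated libraries, against 22.68%, 28.61%, 37.41% and 50.69% in untreated replicates 1 to 4. The treated libraries held 12377313 to 15051254 counts and the untreated ones 8966165 to 14225020, replicates 3 and 4 being the smallest. Mitochondrial genes took 1.892% to 2.473% in treated and 2.395% to 2.942% in untreated libraries. The 4 untreated DTRADQ libraries, which share that text, had short-gene shares of 20.47% to 22.16%, and untreated control replicate 1 fell in their range while replicates 2, 3 and 4 did not. Cell identity followed the label in both groups: the globin Hbb-bs, the neutrophil gene S100a8 and the stromal gene Cxcl12 were all abundant, whereas the cartilage gene Col2a1 was at 0.197 to 0.487 CPM (counts scaled to library size) in treated libraries, against 0 to 1.6 CPM in untreated ones.

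**Figure D1:**
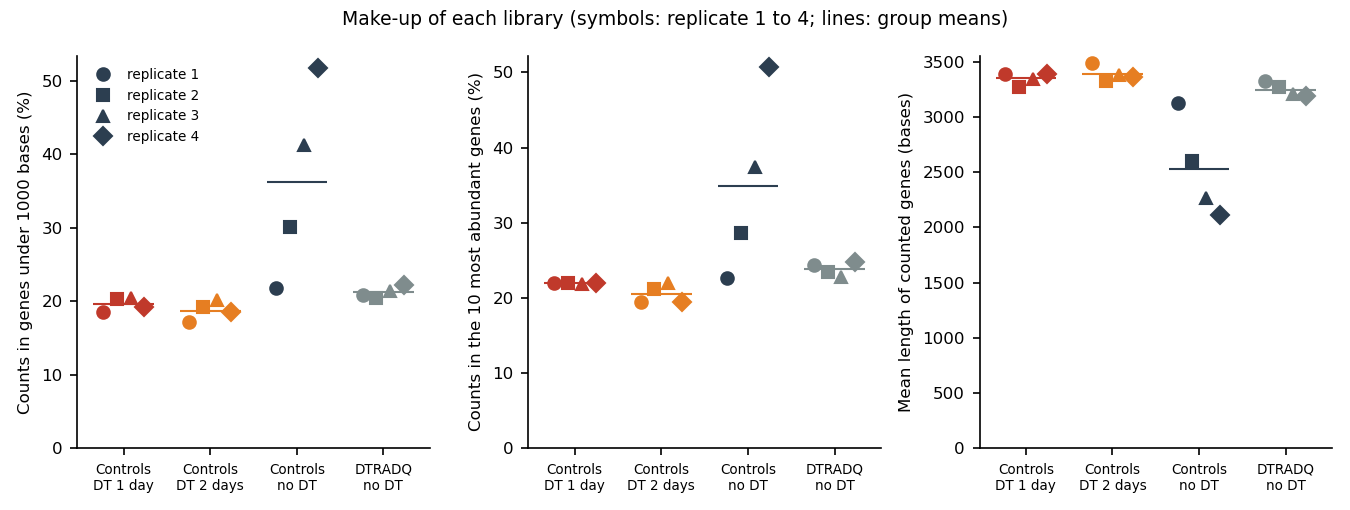
Share of counts in genes under 1000 bases, share in the 10 most abundant genes, and mean model length of counted genes in bases, for each library of the treated controls (day 1, day 2), the untreated controls and the untreated DTRADQ mice. Points are single libraries and symbols mark replicate numbers; the untreated controls spread from 21.84% to 51.69% in the left panel while the treated ones stay between 17.14% and 20.5%.

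For this reason each gene was tested in 2 fits, one with all 4 untreated controls and one with replicates 1 and 2 only. A gene is said here to hold when it passed an adjusted p of 0.05 in both fits with the same sign, and "rose" and "fell" are used of such genes only. Both used edgeR's quasi-likelihood test with Benjamini-Hochberg adjustment, and every adjusted p below is from it. With all 4 untreated libraries, 5428 of 14527 genes were called, which is 37.4%, 2599 of them higher and 2829 lower after DT. Scaling by the upper quartile instead changed this split to 2068 higher and 3554 lower and moved the median log2 change of all genes to -0.111. Against replicates 1 and 2, 3522 of 15044 genes were called (23.4%), 1690 higher and 1832 lower. The genes that held numbered 2497 (17.2% of 14527), of which 1247 rose (8.58%) and 1250 fell (8.6%), and these 2 shares are the background for every gene group below. In 1713 genes (11.8%) the treated and untreated libraries did not overlap, and 1464 genes (10.1%) both held and did not overlap.

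The size of the difference depended on which untreated library served as the baseline. Against replicate 1 alone 579 of 15654 genes were called (3.7%), and against replicate 2 alone 4017 (25.7%). With the short-gene share of each library as a covariate, 1781 of 14527 genes were called (12.3%), and 703 of the 2497 genes that held were among them with the same sign. The median absolute log2 change of the genes that held was 0.812 against all 4 untreated libraries and 0.425 against replicate 1.

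Long and short genes moved in opposite directions. Genes of 501 to 1000 bases had a median log2 change of -0.74, and 33.2% of them fell. Genes of 4001 to 8000 bases had a median of 0.1, and 13.1% of them rose. The median model length was 4584 bases among genes that rose and 1579.5 bases among those that fell, against 3454 bases over all genes tested. Against replicate 1, whose short-gene share was closest to that of the treated libraries, the medians of the same 2 length classes were -0.25 and 0.12. Across genes, Spearman's rho between length and log2 change was 0.281 with all 4 untreated libraries and 0.226 against replicate 1. It was 0.268 with the covariate and 0.072 against the untreated DTRADQ libraries. These are descriptions, since genes are not replicates. With the covariate the medians of the same 2 length classes were -0.21 and 0.16. The covariate thus left the rank correlation with length nearly unchanged, while the gap between the 2 class medians became smaller. Values given with it are not adjusted for gene length. The part of gene length in the results below was not tested beyond the covariate fit and the baseline of replicate 1, and both are given beside the groups described in detail.

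**Figure D2:**
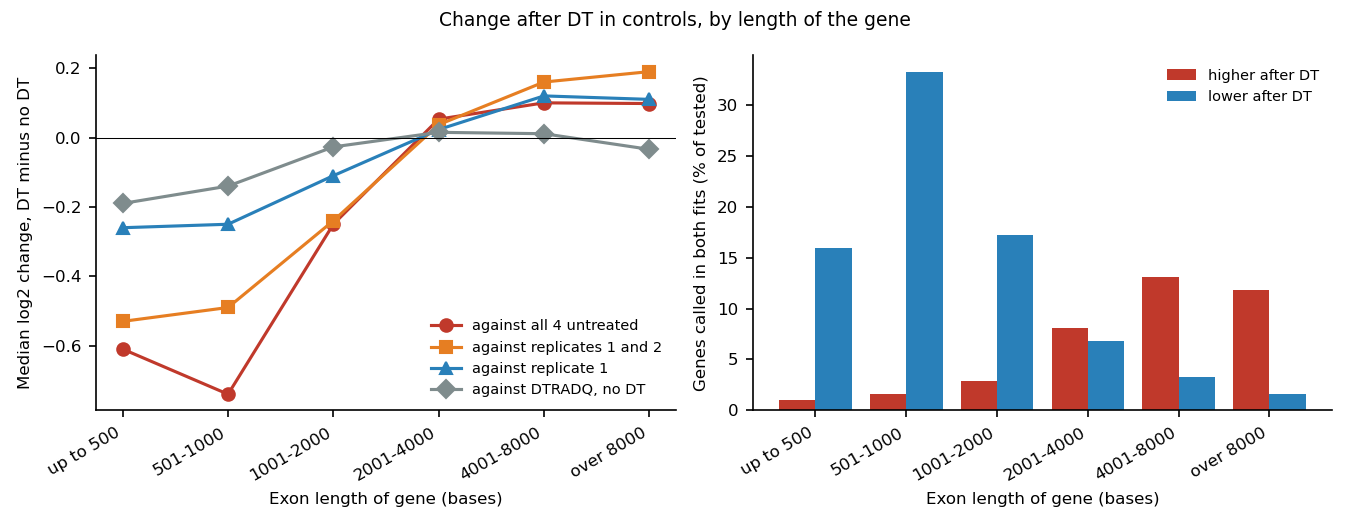
Left, median log2 change after DT in controls by class of gene model length in bases, against each of 4 untreated baselines; right, the percentage of each class that rose or fell in both fits. Genes up to 1000 bases lie below 0 for all 4 baselines, with a median of -0.74 in the class of 501 to 1000 bases against all 4 untreated controls and -0.25 against replicate 1.

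Genes of the toxin's own pathway and of its target lineage were examined first. Hbegf, which encodes the toxin's receptor, was near the detection limit, at 0.394 to 1.23 CPM in treated controls, against 0.764, 0.928, 0.871 and 0.395 CPM in untreated ones. These and all further CPM values are on the scale of the fitted library sizes. The groups overlapped fully, and the log2 change was -0.04 ± 0.42 (SE, adjusted p = 0.9568). None of the 7 tested genes of the list around heparin-binding EGF and the EGF receptor held. Of 13 tested genes of diphthamide synthesis and elongation, 1 rose and 4 fell, with a list median of -0.02 and, with the covariate, also of -0.02, where 1 was called lower. Eef2, the toxin's substrate (chromosome 10, 81176631 to 81182507, plus strand, GRCm38), ran from 599 to 886 CPM with a median of 715 in treated controls, against 530, 434, 476 and 344 CPM in untreated ones. All treated libraries exceeded all untreated ones, by 0.72 ± 0.14 (SE, adjusted p = 9.8e-05) with all 4 and by 0.62 ± 0.15 (adjusted p = 0.0023) against replicates 1 and 2. Against replicate 1 it was 0.48 (adjusted p = 0.1545) and with the covariate 0.44 (adjusted p = 0.1404), short of the threshold in both. Dph3, needed for the first step of diphthamide synthesis, had 32.7 to 38 CPM in treated controls, against 46, 52.5, 64.9 and 141 CPM in untreated ones; its gene overlaps Oxnad1, and without a stated strand setting reads of overlapping genes cannot be told apart. It fell by 1.07 ± 0.16 on the log2 scale (adjusted p = 3.8e-06), and by 0.44 ± 0.09 against replicates 1 and 2. Eef1b2, Eef1d and Eef1g, subunits of the exchange factor that reloads elongation factor 1 with GTP, fell as well.

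The adipocyte and stromal genes that the toxin removes in DTRADQ marrow were still present in the treated controls. Adipoq, the adipocyte hormone adiponectin, had 36.2 to 66.3 CPM after DT, against 43.2, 68.2, 134 and 82.8 CPM without. The ranges overlapped, and it was called with all 4 untreated libraries (-0.67 ± 0.21, adjusted p = 0.0126) but not against replicates 1 and 2 (-0.10 ± 0.22, adjusted p = 0.7833). Cxcl12, the chemokine that keeps stem cells in marrow, had 270 to 530 CPM after DT, against 309, 294, 405 and 422 CPM without, a log2 change of 0.14 ± 0.15. Lepr, the leptin receptor that marks the same cells, and Kitl, their stem cell factor, did not hold either. In DTRADQ mice the log2 changes of Adipoq, Cxcl12, Lepr and Kitl over the same days were -5.88, -3.84, -3.77 and -1.88, and the DT-by-genotype contrast was called for each of them (adjusted p = 2.5e-11, 4.3e-14, 2.8e-12 and 1.6e-07). Of 14 adipocyte genes 3 rose, Acsl1 and the fatty acid transporter Cd36 among them, and 1 fell, with a median of -0.02, of 0.36 against replicate 1 and of 0.33 with the covariate, where 2 were called higher. Of 24 stromal genes 2 rose and 3 fell in the controls, near the background share, with a median of -0.19, of -0.02 against replicate 1 and of 0.05 with the covariate, where none was called. Those that rose were Gja1, the gap junction protein connexin 43, and Chrdl1, a BMP antagonist, and Bmp4, Igfbp5 and Tmem176a fell. Gja1 had 39.5 to 60.2 CPM after DT, against 39.4, 17.9, 22.9 and 14.6 CPM without, so untreated replicate 1 lay at the edge of the treated range.

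**Figure D3:**
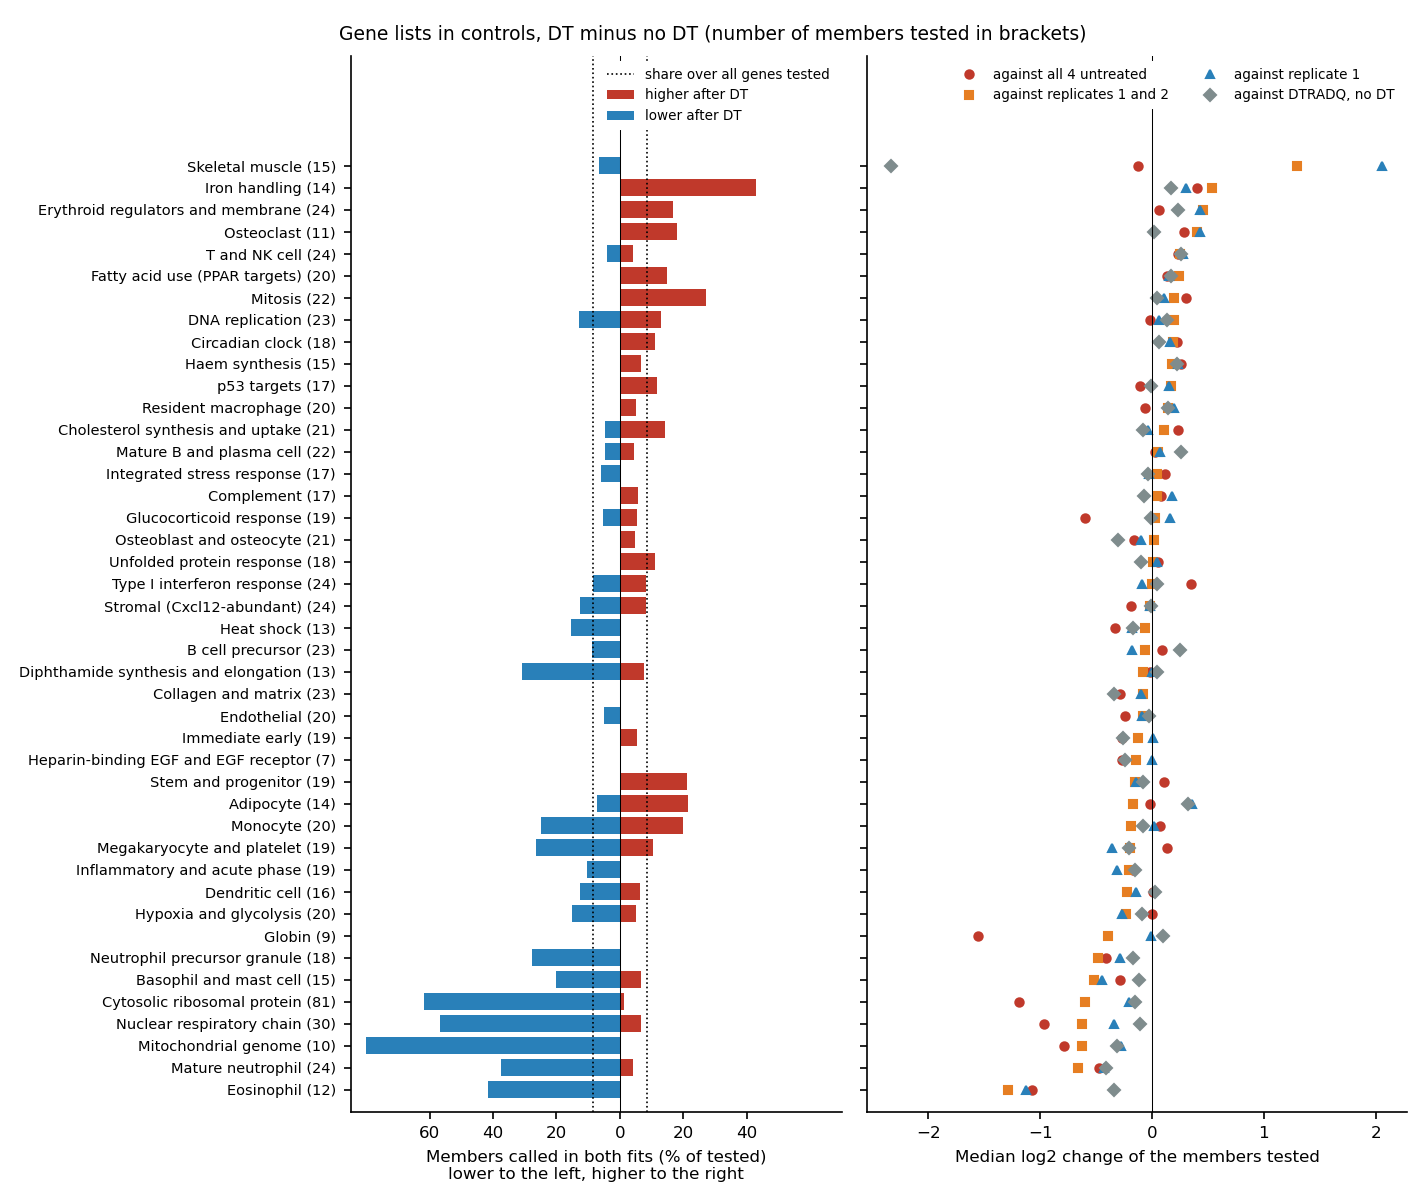
Gene lists with at least 5 tested members. Left, the percentage of tested members that rose (right of 0) or fell (left of 0) in both fits, with dotted lines at the shares of all genes, 8.58% and 8.6%; right, the median log2 change of each list after DT against 4 untreated baselines. Eosinophil, neutrophil, ribosomal protein and respiratory chain lists lie on the lower side, iron handling and mitosis on the higher side, and the skeletal muscle median changes sign with the baseline.

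The eosinophil list was lower after DT at each baseline taken from the controls. Of 12 tested genes 5 fell and none rose, with a median log2 change of -1.07, which was -1.29 against replicates 1 and 2, -1.13 against replicate 1 and -1.51 with the covariate. Prg2, the major basic protein of the granule core (chromosome 2, 84980461 to 84983632, plus strand), ran from 3280 to 7630 CPM with a median of 4640 in treated controls. In untreated controls it stood at 13500, 18500, 16200 and 14100 CPM. The groups were well apart and the untreated libraries, including replicates 3 and 4, were close to each other. Prg2 fell by 1.70 ± 0.22 on the log2 scale (adjusted p = 5.5e-07), by 1.72 ± 0.26 against replicates 1 and 2 (adjusted p = 1.8e-05), and by 1.48 against replicate 1 alone (adjusted p = 0.0148). With the covariate it fell by 1.87 (adjusted p = 0.002). Ear6, an eosinophil ribonuclease, had 182 to 428 CPM after DT, against 843, 1210, 1230 and 1330 CPM without. Ear1, Ear2 and Ear6 are near-identical paralogs, so their separate values are uncertain. Prg3, a homolog of Prg2, had 118 to 253 CPM after DT, against 420, 593, 669 and 358 CPM without.

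The eosinophil genes split by length. Of the 6 with models under 1000 bases 5 fell, and of the 6 longer ones none did. Epx, the eosinophil peroxidase, had 186 to 447 CPM after DT, against 576, 420, 416 and 192 CPM without, with overlapping ranges and a log2 change of -0.41 ± 0.27 (adjusted p = 0.2469). Ccr3, the eotaxin receptor, changed by 0.20 ± 0.19 (adjusted p = 0.4301) and Il5ra, a chain of the interleukin 5 receptor, by -0.17 ± 0.28 (adjusted p = 0.6667). With the covariate 8 of the 12 genes were called lower, Epx among them (-1.36, adjusted p = 0.0251). In untreated DTRADQ mice Prg2 stood at 8640, 10700, 5680 and 4560 CPM, between the 2 control groups and overlapping the treated one, and the change against those mice was -0.62, not called.

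Part of the neutrophil genes fell. Of 24 genes of mature neutrophils 9 fell and 1 rose, with a median log2 change of -0.47, which was -0.66 against replicates 1 and 2, -0.43 against replicate 1 and -0.56 with the covariate, where 2 were called lower. S100a8, a subunit of the abundant cytosolic protein calprotectin, had 20300 to 36000 CPM after DT, against 37900, 74100, 100000 and 148000 CPM without. All treated libraries lay below all untreated ones, but the untreated values spanned a wide range and replicate 1 was just above the treated maximum. The log2 change was -1.72 ± 0.23 (adjusted p = 8.5e-07) with all 4, -1.02 ± 0.21 (adjusted p = 0.00067) against replicates 1 and 2, and -0.46 (adjusted p = 0.3528) against replicate 1. Ly6g, the surface marker of mature neutrophils, had 85 to 159 CPM after DT, against 163, 260, 226 and 333 CPM without, and fell by 1.04 ± 0.16 (adjusted p = 5.8e-06). The others that fell were S100a9, the partner of S100a8, Retnlg, a resistin-like hormone, Slpi, a protease inhibitor, the lectin Clec4d, Wfdc21, Ifitm6 and Stfa2l1. Mxd1, a Myc antagonist of maturing cells and one of the longer genes, rose. Of the 10 genes under 1000 bases 7 fell, and of the 14 longer ones 2 did.

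Of 18 genes of neutrophil precursors 5 fell, namely the granule genes Lcn2, Camp, Ctsg and Orm1, and Ms4a3, which marks committed precursors. The list median was -0.41, -0.29 against replicate 1 and -0.75 with the covariate, where 8 were called lower. Camp, the cathelicidin, had 4520 to 7650 CPM after DT, against 8770, 14800, 18600 and 28800 CPM without. The primary granule genes Mpo and Elane did not hold. Mpo, the myeloperoxidase, had 1080 to 2110 CPM after DT, against 2500, 1690, 791 and 649 CPM without, and its sign was not stable across baselines (0.16 ± 0.25 with all 4, -0.40 ± 0.21 against replicates 1 and 2). Of 15 basophil and mast cell genes 3 fell and 1, Kit, rose, with a median of -0.29, of -0.45 against replicate 1 and of -0.82 with the covariate, where 5 were called lower and 1 higher. Mcpt8, a basophil protease, had 121 to 146 CPM after DT, against 268, 308, 443 and 356 CPM without. It fell by 1.31 ± 0.16 with all 4 (adjusted p = 1.5e-07), by 0.94 against replicate 1 (adjusted p = 0.0258) and by 1.09 with the covariate (adjusted p = 0.0088).

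Genes of the translation and respiration machinery were lower with all 4 untreated libraries, by an amount that shrank against replicate 1 and with the covariate. Of 81 cytosolic ribosomal protein genes 50 fell and 1, Rpl5, rose. The median log2 change was -1.19 with all 4, -0.60 against replicates 1 and 2, -0.21 against replicate 1 and -0.11 with the covariate, where 4 were called lower. Rpl35, a protein of the large subunit, had 97.7 to 123 CPM after DT, against 153, 251, 504 and 822 CPM without. Its untreated values stood in the same order as the short-gene shares, and its change was -1.97 ± 0.22 with all 4 and -0.46 (adjusted p = 0.0997) against replicate 1. Reads of ribosomal protein genes can also fall on their many processed pseudogenes, so single values are uncertain. Among the nuclear genes of the respiratory chain 17 of 30 fell and 2 rose, with medians of -0.97, -0.63, -0.34 and -0.16 with all 4, against replicates 1 and 2, against replicate 1 and with the covariate, where 4 were called higher and 4 lower. Ndufa1 and Ndufa3, small subunits of complex I, and Ndufs6, another, were called in all 3, and Ndufa3 also with the covariate (-0.51, adjusted p = 0.0452). Ndufa3 had 205 to 236 CPM after DT, against 374, 521, 972 and 1510 CPM without. From the mitochondrial genome 8 of 10 tested genes fell, with a median of -0.79, of -0.28 against replicate 1 and of -0.24 with the covariate, where none was called.

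The globin genes were called lower with all 4 untreated libraries, and none of them held. All 9 tested were called there, with a median log2 change of -1.56, which was -0.39 against replicates 1 and 2, -0.01 against replicate 1 and 0.54 with the covariate. Hbb-bs, an adult beta chain, had 27400 to 51900 CPM after DT, against 41800, 68000, 161000 and 262000 CPM without. Untreated replicate 1 lay inside the treated range and replicates 3 and 4 lay far above it. Hba-a1 and Hba-a2, and likewise Hbb-bs and Hbb-bt, are near-identical copies whose reads may be split between them.

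**Figure D4:**
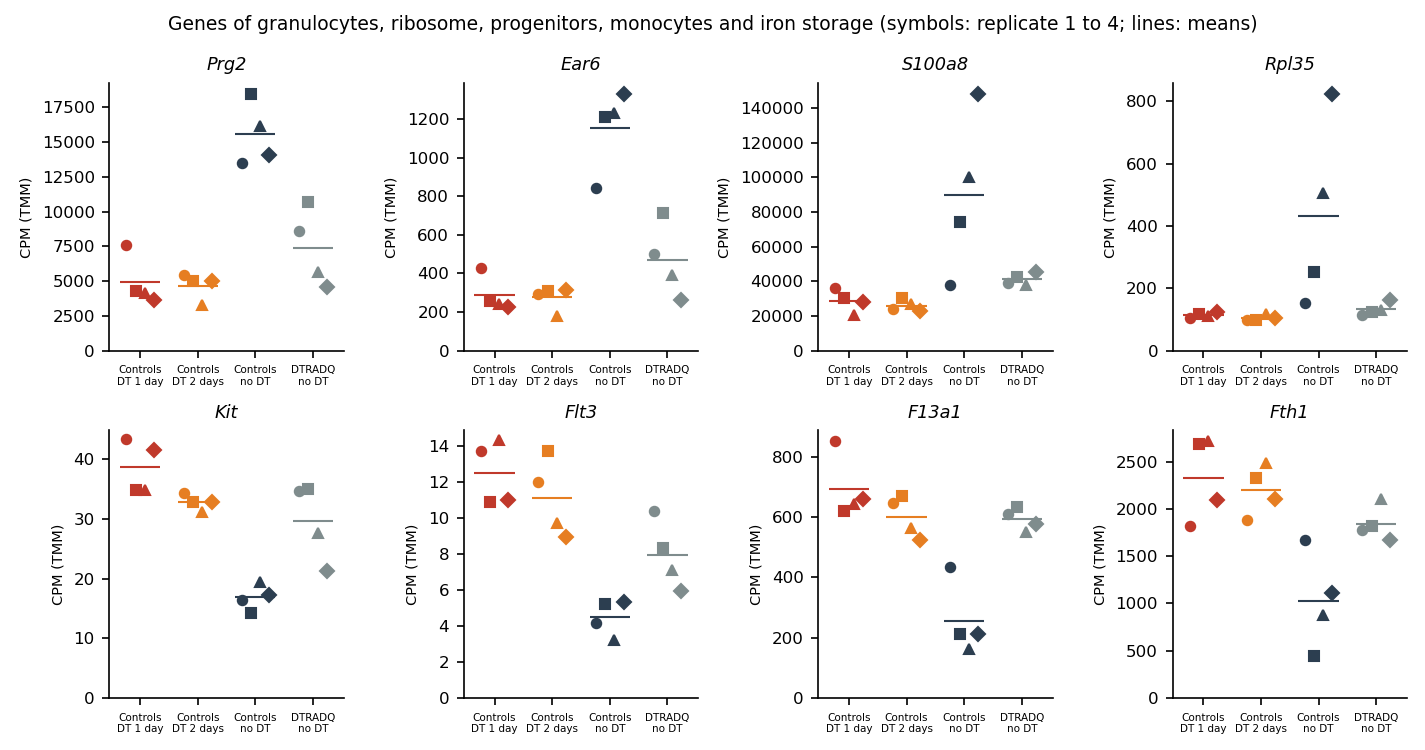
CPM on the scale of the fitted library sizes of 8 genes in each library of the treated controls (day 1, day 2), the untreated controls and the untreated DTRADQ mice; symbols mark replicate numbers and lines the group means. Prg2, Ear6, S100a8 and Rpl35 are lower in the treated controls than in all 4 untreated controls, and Kit, Flt3, F13a1 and Fth1 are higher; the untreated S100a8 and Rpl35 values are widely spread, those of Prg2 and Kit much less.

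A few other genes of the red cell lineage rose. Of 24 erythroid regulators and membrane genes 4 rose and none fell, among them Epb42, a protein of the membrane skeleton, the adducin gene Add2, and Tfrc, the transferrin receptor that brings iron into the cell. The median log2 change was 0.06 with all 4 and 0.46, 0.43 and 0.70 against replicates 1 and 2, against replicate 1 and with the covariate, where 10 were called higher. Epb42 had 220 to 378 CPM after DT, against 192, 160, 186 and 173 CPM without, so that the groups did not overlap, and it rose by 0.75 ± 0.18 (adjusted p = 0.0019). Of 22 mitosis genes 6 rose and none fell: the checkpoint kinases Bub1 and Bub1b, the mitotic kinase Plk1 and the motor proteins Kif11, Kif20a and Kif23. Their list median was 0.30, 0.11 against replicate 1 and 0.13 with the covariate, where 2 were called higher. Bub1b had 85.2 to 97.5 CPM after DT, against 74.2, 42.5, 44.7 and 37.6 CPM without, a rise of 0.88 ± 0.14 (adjusted p = 1.1e-05). Untreated replicate 1 was closest to the treated libraries, and against it the change was 0.32 (adjusted p = 0.315).

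Iron handling had the largest share of members that rose, 6 of 14 tested, with none lower. Cells adjust these genes through iron regulatory proteins, which bind hairpins in the messages when iron is scarce: a hairpin at the start of a message blocks its translation, and several at the end protect it from decay. The loop and bulge of these hairpins can be read in 3 of the genes that rose, and the matches are printed to show which kind each gene carries. Capitals mark the motif C, NNNNN and CAGTGN in a row, which covers the bulged C and the loop, searched on the transcript strand only. The sequences are read from the GENCODE transcripts of GRCm38, 1 match for each gene:
Fth1, 5′ untranslated region, chr19:9982729-9982758, plus strand: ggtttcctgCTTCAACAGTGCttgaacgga
Slc40a1, 5′ untranslated region, chr1:45925467-45925496, minus strand: ttccaacttCAGCTACAGTGTtagctaagt
Tfrc, 3′ untranslated region, chr16:32631595-32631624, plus strand: tcacattatCGGGAGCAGTGTcttccataa
The Tfrc transcript held 5 such matches, the Fth1 transcript 2 and the Slc40a1 transcript 1. Of 21291 transcripts, 7.6% held the motif in their first 200 bases and 0.874% held at least 4 within 600 bases, so a match alone is a description.

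Fth1, the heavy chain of the iron store ferritin, ran from 1820 to 2720 CPM after DT, against 1670, 449, 883 and 1110 CPM without. Replicate 1 was again the untreated library nearest to the treated ones, and the rise was 1.14 ± 0.21 with all 4 (adjusted p = 6.3e-05), 1.11 ± 0.26 against replicates 1 and 2 (adjusted p = 0.002) and 0.46 against replicate 1 (adjusted p = 0.2147). Fth1 is a short gene of 866 bases, so its direction is the opposite of its length class, and it has processed pseudogenes that can take its reads. Slc40a1, the iron exporter ferroportin, had 437 to 626 CPM after DT, against 452, 134, 179 and 185 CPM without, with replicate 1 inside the treated range. Tfrc had 297 to 538 CPM after DT, against 211, 177, 346 and 338 CPM without; it rose by 0.57 ± 0.23 with all 4 (adjusted p = 0.0458) and by 1.05 ± 0.27 against replicates 1 and 2 (adjusted p = 0.005). The other 3 that rose were Ireb2 and Aco1, which encode the iron regulatory proteins themselves, and Steap3, the endosomal reductase that frees iron from transferrin. Ireb2 had 29.8 to 44.6 CPM after DT, against 26.5, 18.6, 19 and 24.1 CPM without, and rose by 0.76 ± 0.12 (adjusted p = 5e-06). The list median was 0.40 with all 4, 0.30 against replicate 1 and 0.50 with the covariate, where 6 were called higher.

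Kit and Flt3, the cytokine receptors of blood stem cells and early progenitors, rose at every baseline taken from the controls. Kit (chromosome 5, 75574916 to 75656722, plus strand) ran from 31.1 to 43.4 CPM with a median of 34.6 after DT, against 16.4, 14.3, 19.5 and 17.2 CPM without. The untreated libraries were tight and none came near the treated ones. The rise was 1.09 ± 0.13 with all 4 (adjusted p = 1.7e-07), 1.23 ± 0.17 against replicates 1 and 2 (adjusted p = 6.4e-06), 1.14 against replicate 1 (adjusted p = 0.0076) and 1.10 with the covariate (adjusted p = 0.0028). Flt3 had 8.92 to 14.3 CPM after DT, against 4.17, 5.23, 3.19 and 5.34 CPM without, a rise of 1.39 ± 0.18 (adjusted p = 3.5e-07) that was 1.51 against replicate 1 (adjusted p = 0.0068). Both are long genes of 5831 and 7760 bases, and Flt3 overlaps Gm26597. In untreated DTRADQ mice Kit stood at 34.6, 35, 27.7 and 21.2 CPM, inside and below the treated range of the controls, and the change against those mice was 0.26, not called. Of 19 stem and progenitor genes 4 rose and none fell, the others being Myc and Adgrg1, the adhesion receptor GPR56. The list median had no stable sign, at 0.11 with all 4, -0.15 against replicates 1 and 2, -0.14 against replicate 1 and -0.24 with the covariate, where 2 were called higher and 1 lower.

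Monocyte genes split. Of 20 tested 4 rose (F13a1, Csf1r, Vcan and Cx3cr1) and 5 fell, among them Ly6c2, S100a4, Ly86 and Ms4a6c. F13a1, the coagulation factor XIII chain, had 525 to 853 CPM after DT, against 435, 212, 162 and 211 CPM without. Ly6c2, the antigen of inflammatory monocytes, had 522 to 731 CPM after DT, against 992, 1520, 1290 and 1640 CPM without. The direction went with length here as well, since the median model of those that fell was 2050 bases and of the others 3927. The list median was 0.07 with all 4, -0.19 against replicates 1 and 2, 0.02 against replicate 1 and -0.14 with the covariate, where 1 was called higher and 4 lower. The 19 megakaryocyte genes divided likewise, with 5 falling (Pf4, Gp9, Gp1bb, Treml1 and Clec1b) and 2 rising (Itga2b and Plek). Their median was 0.13 with all 4, -0.20 against replicates 1 and 2, -0.36 against replicate 1 and -0.50 with the covariate, where 5 were called lower. Clec1b, the platelet receptor for podoplanin, is an exception to the length pattern with a model of 5103 bases: it had 139 to 204 CPM after DT, against 267, 349, 360 and 315 CPM without. It fell by 1.00 ± 0.12 (adjusted p = 1.7e-07), by 0.71 against replicate 1 (adjusted p = 0.0283) and by 0.81 with the covariate (adjusted p = 0.0084), and it overlaps Clec9a.

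In the stress and tissue lists few members held, at or near the background share. Of 24 type I interferon genes 2 rose (Ifih1, an RNA sensor, and Oas3) and 2 fell, Ifi27l2a among them. In the unfolded protein response 2 of 18 rose, one being Hyou1, a chaperone of the endoplasmic reticulum, which was at 12.8 to 16.3 CPM after DT, against 6.39, 5.48, 11.6 and 10.5 CPM without. Of the integrated stress response 1 of 17 fell, and of the heat shock genes 2 of 13 fell. No collagen or matrix gene of 23 held. Only rises were seen among genes that held in the lists of osteoclasts (2 of 11), fatty acid use (3 of 20), p53 targets (2 of 17), the circadian clock (2 of 18), haem synthesis (1 of 15), resident macrophages (1 of 20), complement (1 of 17) and immediate early genes (1 of 19). Only falls were seen among B cell precursor genes (2 of 23), inflammatory genes (2 of 19) and endothelial genes (1 of 20). In mixed lists 3 rose and 3 fell of 23 DNA replication genes, 3 and 1 of 21 cholesterol genes, 1 and 3 of 20 hypoxia and glycolysis genes, 1 and 2 of 16 dendritic cell genes, and 1 and 1 each of 22 mature B and plasma cell, 24 T and NK cell and 19 glucocorticoid genes. Among 21 osteoblast and osteocyte genes 1 rose. Of 15 skeletal muscle genes 1 fell, and their summed level in CPM as deposited, without the fitted scaling, was 81.1 to 254 after DT, against 103 to 117 without. The fixed genes for hormone and daytime did not hold: the glucocorticoid targets Fkbp5 (-0.60 ± 0.26) and Tsc22d3 (0.87 ± 0.29) and the clock genes Per1 (-1.14 ± 0.38), Dbp (-0.17 ± 0.27) and Nr1d1 (0.86 ± 0.31) passed in 1 fit or in none. Other members of the glucocorticoid and clock lists did hold, as counted above. The time of day of collection is not given in the labels.

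The 12 largest rises among single genes were led by Mrps34, Slc39a1 and Wtap. Mrps34, a protein of the mitochondrial ribosome, had 388 counts over the 8 treated libraries, against 2, 1, 2 and 3 counts in the untreated ones, and rose by 3.80 ± 0.55 (adjusted p = 2.5e-06). It overlaps Mapk8ip3, and in untreated DTRADQ mice it had 79 counts. Slc39a1, a zinc importer, had 51.9 to 108 CPM after DT, against 30.8, 12.1, 9.73 and 9.09 CPM without. Wtap, a core subunit of the complex that methylates adenosines in messenger RNA, had 145 to 259 CPM after DT, against 80.9, 25.8, 23.7 and 44.9 CPM without, a rise of 2.23 ± 0.24 (adjusted p = 3.4e-08). Rbm15, an RNA-binding partner of the same complex, rose by 1.89 ± 0.25, as did Notch2, a receptor of the Notch family (1.81 ± 0.30), and Bhlhe41, a repressor in the circadian clock (1.93 ± 0.35). In Slc39a1, Wtap, Rbm15, Notch2 and Bhlhe41 untreated replicate 1 stood nearest to the treated libraries. Untreated DTRADQ mice reached or came near the treated levels of these genes. Wtap was at 248, 223, 122 and 124 CPM there, the lower values being below the treated minimum of 145 CPM. Gimap3, a GTPase of lymphocytes, and Fn3krp, which repairs glycated proteins, were called against replicate 1 too. Zfp317, Tmem170b, Gdap10 and Lpar5 complete the 12.

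The largest falls were led by genes that untreated replicate 4 set apart. Cadps2, a factor of dense vesicle release, had 19.4 to 31.7 CPM after DT, against 34.7, 86, 334 and 2060 CPM without. Its log2 change of -4.55 ± 0.49 with all 4 was -1.16 ± 0.20 against replicates 1 and 2 and -0.36 against replicate 1. Pnck, a calmodulin-dependent kinase, followed the same order. Lars2, the mitochondrial leucyl-tRNA synthetase, is not one of the 12 largest falls but was also set apart by replicate 4. It was at 47100 CPM there, against 2280 in replicate 1. A treated library, replicate 2 of day 1, reached 2410 CPM, so the Lars2 groups overlapped. Fam98b, a subunit of the tRNA ligase complex, had 12.8 to 17.2 CPM after DT, against 25.8, 44.5, 72 and 134 CPM without, and was still lower against replicate 1 (-0.81, adjusted p = 0.0183). The remaining ones of the 12 were Ear1, Ear6, Rpl35, Pf4, Ndufa1, Ndufa3, Tomm7 of the mitochondrial import pore, Atp5k of the ATP synthase, and Ldhc, a lactate dehydrogenase. Ldhc had 6.72 to 11.5 CPM after DT, against 18.5, 28.8, 35.6 and 47.6 CPM without, and fell by 1.11 against replicate 1 (adjusted p = 0.0363). Phactr2, of a family that binds actin and protein phosphatase 1, went against the order of the others. It had 19 to 43.3 CPM after DT, against 214, 68.1, 22.4 and 35.6 CPM without, so that replicates 3 and 4 overlapped the treated libraries while replicates 1 and 2 did not.

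The DTRADQ mice gave an independent set of libraries for the same toxin. There 1523 of 14527 genes (10.5%) were called over the same days, 534 higher and 989 lower. Of the genes that held in the controls 294 were called with the same sign in DTRADQ mice, 145 higher and 149 lower, which is 11.8% of the genes that held and 19.3% of those called in DTRADQ mice. Another 26 were called with the opposite sign, among them Gja1, Cx3cr1, Cr2 and Orm1. Gdf15, a cytokine secreted by stressed cells (chromosome 8, 70629393 to 70632456, minus strand), was low throughout, with 187 counts over the 8 treated controls, against 0, 4, 1 and 0 counts in the untreated ones. All 8 treated libraries, at 0.394 to 3.2 CPM, lay above all untreated ones. It rose by 3.43 ± 0.85 (adjusted p = 0.002), by 3.22 ± 1.06 against replicates 1 and 2 (adjusted p = 0.0258), and in DTRADQ mice by 3.33 ± 0.76 (adjusted p = 0.0039). The log2 change was 7.61 against replicate 1 alone, which had 0 counts, and 2.13 against replicate 2 alone, not called in either.

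Several genes with known roles in red cells rose in both genotypes, and they were picked after their values were seen. Slc25a39, the carrier that takes glutathione into mitochondria (chromosome 11, 102402985 to 102407946, minus strand), had 161 to 334 CPM in treated controls, against 86.6, 100, 157 and 159 CPM in untreated ones. It rose by 0.89 ± 0.22 (adjusted p = 0.0018), by 1.44 against replicate 1 (adjusted p = 0.0289) and by 1.69 ± 0.23 in DTRADQ mice (adjusted p = 3.3e-06). Riok3, a kinase needed for red cell maturation, had 189 to 339 CPM in treated controls, against 122, 99.4, 103 and 153 CPM in untreated ones, and rose by 1.25 ± 0.17 in controls and by 1.18 ± 0.17 in DTRADQ mice. Bcl2l1, the survival factor BCL-XL of erythroblasts, had 292 to 471 CPM in treated controls, against 225, 104, 75.9 and 101 CPM in untreated ones. Ncoa4, which delivers ferritin for degradation, had 12.9 to 20.4 CPM after DT, against 8.75, 4.22, 4.65 and 5.53 CPM without. The log2 changes of Bcl2l1 and Ncoa4 were 0.79 and 0.98 against replicate 1, and neither was called. Against untreated DTRADQ mice they were 0.56 and 0.42, also not called. Both genes also rose in DTRADQ mice (1.20 ± 0.21 and 1.00 ± 0.24). Acsl1, which activates fatty acids, Pfkl, the liver phosphofructokinase, Alpl, tissue-nonspecific alkaline phosphatase, and Oas3 did so as well.

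**Figure D5:**
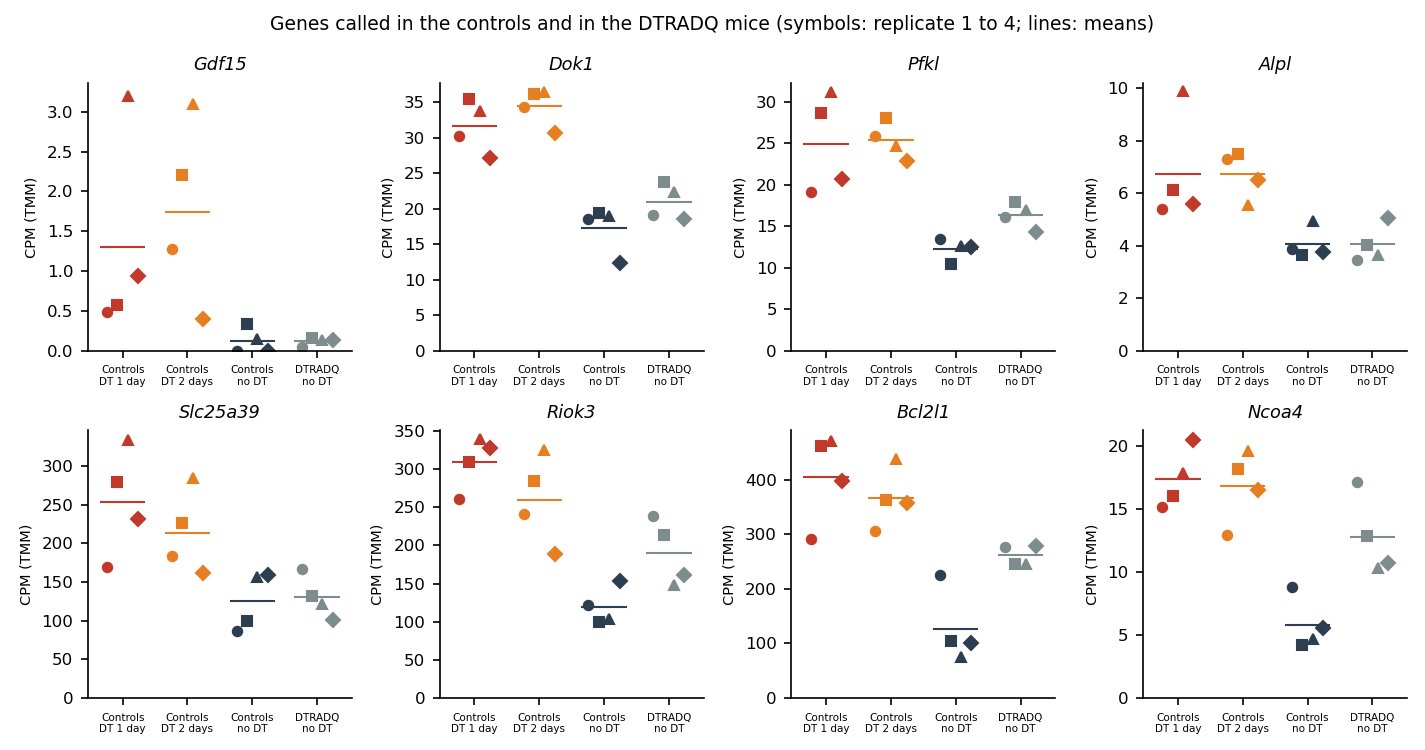
CPM on the scale of the fitted library sizes of 8 genes that rose in the controls and were called higher in the DTRADQ mice, in each library of the treated controls (day 1, day 2), the untreated controls and the untreated DTRADQ mice; symbols mark replicate numbers and lines the group means. Dok1 runs from 27.1 to 36.5 CPM in treated controls, above all untreated libraries of both genotypes, whereas Riok3, Bcl2l1 and Ncoa4 of untreated DTRADQ mice lie nearer to the treated controls.

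The untreated DTRADQ libraries also served as a second untreated baseline, although they differ in genotype. In the fit of 32 libraries 4 of 14527 genes (0.0275%) were called between treated controls and untreated DTRADQ mice by edgeR's quasi-likelihood test, and 1624 had an unadjusted p under 0.05. In the fit without untreated control replicates 3 and 4 there were 188 of 15044 (1.25%), 123 higher and 65 lower. The median absolute log2 change of the 2497 genes that held was 0.169 against that baseline. Of them 94 were called with the same sign there, 65 higher and 29 lower, and 1 with the opposite sign. Both comparisons use the same 8 treated libraries, so this count is no independent support. Among the 94, 34 had no overlap with either untreated group. The 94 were chosen by tests on the same libraries and the share over all genes is not given here, so this count is a description. Dok1, an adaptor that dampens tyrosine kinase signals (chromosome 6, 83030934 to 83033471, minus strand), ran from 27.1 to 36.5 CPM with a median of 34.1 in treated controls. It was at 18.6, 19.4, 19 and 12.3 CPM in untreated controls and at 19.1, 23.8, 22.4 and 18.5 CPM in untreated DTRADQ mice. No untreated library of either genotype reached the treated range. Dok1 rose by 0.91 ± 0.13 (adjusted p = 1.2e-06), by 0.84 against replicate 1 (adjusted p = 0.0156), by 0.66 against untreated DTRADQ mice (adjusted p = 0.002, without control replicates 3 and 4) and by 0.74 ± 0.12 within DTRADQ mice (adjusted p = 0.00012).

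Stub1, a ubiquitin ligase that works with chaperones, was called in the same comparisons as Dok1. It had 8.77 to 15.4 CPM in treated controls, against 4.58, 3.21, 3.05 and 4.35 CPM in untreated ones and 8.14, 7.97, 6.22 and 4.09 CPM in untreated DTRADQ mice. It overlaps Jmjd8. Gdf15, Slc25a39, Riok3, Pfkl, Alpl and Tmcc2 were among the 94 as well, and so were Phactr2 and Fam98b, which fell. Tmsb4x, thymosin beta 4, a short actin-binding protein, had 6130 to 8040 CPM after DT, against 10600, 17200, 18400 and 27000 CPM without and 9640, 10600, 9730 and 10800 CPM in untreated DTRADQ mice.

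The change after DT, each against untreated mice of its own genotype, differed between controls and DTRADQ mice for many genes. The DT-by-genotype contrast, the change in DTRADQ mice minus the change in controls, was called for 2553 of 14527 genes (17.6%), and for 1416 of the 2497 genes that held in the controls (56.7%). The eosinophil genes are among them: Prg2 changed by 0.28 ± 0.24 in DTRADQ mice, against -1.70 in controls (adjusted p of the difference = 0.00014). Kit changed by 0.33 ± 0.12 in DTRADQ mice, and the difference was called (adjusted p = 0.0037). For Gdf15 it was not (adjusted p = 0.9728). Because the contrast contains the untreated controls, their spread enters it in full. The share of 56.7% also rests on the same control libraries by which the genes that held were chosen. Without DT the 2 groups of libraries already differed, with 3944 of 14527 genes (27.1%) called between untreated DTRADQ mice and untreated controls. All 4 untreated controls enter this count. Their short-gene shares ran from 21.84% to 51.69%, against 20.47% to 22.16% in untreated DTRADQ mice. Genotype and library make-up cannot be told apart in it. A different response to DT and a difference between the untreated groups cannot be told apart here.

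In the fit of 32 libraries no gene separated the 2 toxin days in the controls. Between day 2 and day 1, 0 of 14527 genes passed edgeR's quasi-likelihood test, while 332 had an unadjusted p under 0.05. The untreated controls enter the estimate of the spread in that fit. Without the 2 untreated controls of largest short-gene share, 3032 genes instead of 1523 were called after DT in DTRADQ mice. The contrast between the days without those 2 libraries is not given here, so the count of 0 applies to the fit of 32 libraries only. Against all untreated controls in that fit, 4859 genes were called on day 1 (33.4%), 4109 on day 2 (28.3%) and 4391 on day 3 (30.2%). The labels of the day 3 libraries name a different lane text.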

How the data were processed

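The authors deposited, per the file headers, a gene table for each library with raw counts, CPM and RPKM. Per the submitters' processing notes, bcl2fastq, STAR 2.0.4b, Subread, featureCounts 1.45 and GRCm38 were used, and per the labels the kit was Clontech SMARTer v1. The annotation release, strand setting and handling of multi-mapping reads: not given in the sources used here. The deposited CPM and RPKM served only to check the counts. Counts of 14527 genes (minimum count 10) were fitted with edgeR 4.0.16 (R 4.3.3) as 8 group means over 32 libraries, with TMM scaling and the quasi-likelihood test. The contrast was the mean of both treated control groups minus the untreated controls, at an adjusted p of 0.05, and the fit was repeated without untreated replicates 3 and 4. The test was checked on counts simulated at a common rate per gene, apart from planted changes, without untreated replicates 3 and 4. Differences in short-gene share between libraries were not simulated, so the check does not cover them. Library values were compared by exact permutation. CPM printed here are TMM-scaled. Within each of the treated and untreated control groups compared, no 2 libraries agreed within counting noise. The members and all 44 gene lists were chosen with earlier results of these data known. Genes named are the 12 largest rises and 12 largest falls that hold without overlap at a mean log2 CPM of at least 1, up to 3 members that hold from each list, fixed genes, and the most abundant genes. Prg2, Epx, Ccr3, Il5ra, Mpo, Elane, Csf1r, Fth1, Steap3, Dok1, Slc25a39, Riok3, Tmcc2, Phactr2, Tmsb4x, Stub1, Ncoa4 and Bcl2l1 were chosen after their values were seen, as were the members of lists named without values. Alternatives covered scaling, filtering, limma 3.58.1, DESeq2 1.42.0, each library left out, the choice of untreated libraries, the replicate block and a covariate. The last of these, the single-replicate baselines and the DTRADQ baseline were chosen after seeing the data. Some genes are not reported here.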

Additional observations from a re-analysis of the deposited data

Results flagged for a closer look

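Chance alone marks about 1 in 20 groups of 4 libraries as holding a value far from the others, and 26 of 336 groups tested were marked. On day 1 of DT these were Fn3krp at 98.1 CPM in replicate 4, Gdf15 at 3.2 and Alpl at 9.88 CPM in replicate 3, and Acsl1 at 273 and Lars2 at 2410 CPM in replicate 2. Replicate 1 of that day held 5 of the marks, among them 3 eosinophil genes that were highest there: Prg2 at 7630, Ear6 at 428 and Il5ra at 10.6 CPM. Its other marks were Kif20a at 109 and Hbb-bt at 9420 CPM. On day 2 the eosinophil genes were lowest in replicate 3, with Ear1 at 95.1, Ear6 at 182 and Prg3 at 118 CPM. The other marks of day 2 were Aco1 at 22.8 CPM in replicate 2, Ndufs6 at 73.5 CPM in replicate 4, and Clec1b at 204 and Bmp4 at 1.22 CPM in replicate 1. Among untreated controls, replicate 1 stood above the other 3 for Slc39a1 (30.8 CPM), Zfp317 (3.19), Bhlhe41 (9.44), Tmem170b (61.3), Notch2 (207) and Slc40a1 (452). Untreated replicate 4 stood apart for Cadps2 (2060 CPM), Lars2 (47100) and Dok1 (12.3).

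The DT-by-genotype contrast, the log2 change in DTRADQ mice minus that in controls, passed an adjusted p of 0.05 in edgeR's quasi-likelihood test for 69 of the 106 genes described. Over all genes it passed for 2553 of 14527 (17.6%). Many of the 106 were chosen by their change in the same control libraries that enter the contrast, so their larger share is a description only. The untreated controls enter the contrast, and their spread was not tested apart from the alternatives below. Genes of the ablated lineage gave -5.21 for Adipoq, -4.30 for Lepr, -3.98 for Cxcl12, -2.67 for Gja1, -2.18 for Kitl and -1.33 for Bmp4. Eosinophil genes gave 2.56 (Ear1), 2.33 (Ear6), 2.31 (Ear2), 1.97 (Prg2) and 1.73 (Prg3). Neutrophil genes gave 2.04 for Retnlg, 1.72 for Camp, 1.70 for Wfdc21, 1.69 for S100a8, 1.61 for S100a9, 1.32 for Ly6g and 0.79 for Elane. Other white cell and platelet genes gave 1.17 for Mcpt8, 1.15 for Ly6c2, 1.96 for Pf4, 1.65 for Gp1bb and 1.13 for Clec1b. It was -1.29 for F13a1, -0.67 for Csf1r, -1.20 for Flt3, -0.75 for Kit and -2.66 for Gimap3. Globins gave 2.60 (Hba-a2), 2.55 (Hba-a1), 2.52 (Hbb-bt) and 2.50 (Hbb-bs). Genes of translation and respiration gave 1.42 for Rpl37, 1.41 for Rpl35, 0.68 for Rpl28, 1.73 for Ndufa3, 1.71 for Ndufa1, 1.41 for Ndufs6, 1.51 for Tomm7, 1.28 for Atp5k, 0.88 for Dph3 and -0.68 for Eef2. Iron and mitosis genes gave -1.09 for Steap3, -0.74 for Ireb2, -0.73 for Aco1, -0.88 for Kif20a, -0.72 for Bub1 and -0.58 for Bub1b. The largest rises in controls gave -2.57 for Mrps34, -1.91 for both Slc39a1 and Wtap, -1.86 for Rbm15, -1.75 for Zfp317, -1.72 for Bhlhe41, -1.62 for Notch2, -1.60 for Lpar5, -1.52 for Fn3krp, -1.35 for Gdap10 and -1.30 for Tmem170b. The largest falls gave 4.67 for Cadps2, 3.07 for Pnck, 2.24 for Ldhc and 1.47 for Fam98b. The remaining genes were Lars2 at 2.91, Gm42418 at 1.97, Tmsb4x at 1.22, Ifih1 at -0.80, Stub1 at -0.78 and Hyou1 at -0.65.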

How the results depend on the processing

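The untreated libraries chosen as the baseline and the covariate moved the counts, and the cause was not tested. The counts below are genes higher and lower after DT. The main 2599 and 2829 became 1657 and 1757 with only the 12 libraries compared, 1690 and 1832 without untreated replicates 3 and 4, 245 and 334 with untreated replicate 1 only, 842 and 939 with the short-gene share as a covariate, and 2 and 2 with untreated DTRADQ mice as the baseline. The 1690 and 1832 called against replicates 1 and 2 became 622 and 937 with limma-voom quality weights, 338 and 242 with the covariate, and 123 and 65 with the DTRADQ baseline. The 1247 genes that rose in both fits became 621 under limma-voom and 805 with only the 12 libraries, and the 1247 and 1250 became 319 and 202 with the covariate and 2 and 2 with the DTRADQ baseline. DT by genotype (2553) gave 4027 with limma-voom, 5784 with only untreated replicates 3 and 4, and 666 with only replicate 1. DTRADQ mice (1523) gave 3118 with limma-voom, 3032 without untreated control replicates 3 and 4, 2762 with only these, 3273 with only replicate 1 and 3273 with only replicate 2, since the untreated controls enter its estimate of the spread, and 4335 with the covariate.

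Leaving out 1 library at a time, the main counts ranged from 2012 to 3401 higher and 1914 to 3420 lower, those against replicates 1 and 2 from 245 to 2073 and 334 to 1944, and the genes that held from 160 to 1707 and 195 to 1611. The lowest of the last 2 pairs came without untreated replicate 2 (245 and 334, 160 and 195). DT by genotype ranged from 1817 to 4609, the highest without untreated replicate 1, and DTRADQ from 1447 to 2328, the highest without untreated replicate 4. Of 106 genes, DESeq2 kept direction and call for 105, upper-quartile scaling for 102, replicate 1 alone for 42, the covariate for 48 and the DTRADQ baseline for 12.

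The labels do not say that replicate numbers pair the libraries, and not every pair deviated together: correlations of same-numbered deviations ran from -0.048 to 0.39, 9 of 12 were over 0.1, all 4 between day 1 and no DT among them, and 6 samples correlated best with their own number. With the number as a replicate block the counts were 2798 and 2840, 1768 and 1793 against replicates 1 and 2, 1369 and 1237 that held, 2864 for DT by genotype and 1761 in DTRADQ mice, and all 106 genes kept their call.

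Some log2 changes reversed. With the DTRADQ baseline these were Tmem170b (-0.04), Gdap10 (-0.01), Notch2 (-0.0031), Gja1 (-0.04), Adipoq (0.57), Per1 (0.23), Hba-a1 (0.17) and Hba-a2 (0.16). With the covariate they were Cadps2 (0.51), Pnck (0.28), Mpo (-0.90), Adipoq (0.29), Tsc22d3 (-0.15), Per1 (1.47), Ighm (-0.85), Hbb-bs (0.54), Hbb-bt (0.66), Gm42418 (1.65), Hba-a1 (0.43), Hba-a2 (0.45) and Lars2 (0.40). With replicate 1 only they were Adipoq (0.26), Per1 (0.87), Hbb-bt (0.02) and Gm42418 (1.13). Per1 was 0.23 with replicate 2 only, 0.05 with limma-voom and 0.52 without replicates 3 and 4, where Gm42418 was 0.41.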
